A study of Mus musculus with 10 samples.

Results

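Glucose uptake, glycolysis and lactate export genes that HIF, the hypoxia-inducible transcription factor, is known to induce were followed in the frontonasal prominence (FNP) of mouse embryos at E10.5. The FNP is the facial swelling that gives rise to the forehead and nose. The 10 genes were Slc2a1, Hk2, Pfkl, Pfkp, Aldoa, Pgk1, Eno1, Ldha, Pdk1 and Slc16a3. They were picked by name for their role, with earlier results of these data known. Counts of members set beside shares of all genes are therefore descriptive only. The rows of the members were read from the table of raw counts, which holds 35542 genes. All 10 were found and all 10 passed the filter on low counts that left 15982 genes for testing.

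RNA was sequenced from 6 FNP samples with the genotype Smchd1 WT/WT (WT) and 4 with Smchd1 MD1/MD1, homozygous for MommeD1 (MD1), a loss-of-function mutation of a chromatin protein that holds the inactive X and several autosomal gene clusters silent. All samples were E10.5 tissue of the FVB/NJ strain, and the labels name no treatment. By their labels, WT comprised 3 males (replicates 1 to 3) and 3 females (replicates 4 to 6), and MD1 comprised 2 males (replicates 2 and 3) and 2 females (replicates 1 and 4). According to the study's methods, the MommeD1 mutation is lethal to homozygous female embryos. The mutation is present in every cell of the embryo, and its effect in the FNP cannot be told apart from its effect in the rest of the embryo. Nothing in the labels says whether each sample came from 1 embryo or from a pool, so a p-value here reflects only the spread among libraries, which may be technical.

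The libraries held between 4195119 and 24125084 counts. Levels are given as CPM, which are counts scaled to a common library size after trimmed-mean (TMM) normalisation. Smchd1 was at 229 to 265 CPM in WT and at 55.3 to 99.9 CPM in MD1. The library labelled as MD1 female replicate 1 goes against its label, with 88.2 CPM of the Y-linked gene Ddx3y and 204 CPM of Xist, whose RNA coats a silenced X, where the WT females had 0 CPM of Ddx3y and 2594 to 2695 CPM of Xist. MD1 female replicate 4 had 0 CPM of Ddx3y and 6724 CPM of Xist. That library stood apart from the other 9 on the first principal component (-91.7), which carried 37.3% of the variance. On the second component MD1 male replicate 3, the shallowest library, was at -70.2 and the others at -22.3 to 23.8. All 9 facial mesenchyme markers were detected. Their summed level was 1356 to 1929 CPM in WT, 1318 to 1598 CPM in 3 MD1 libraries and 940.0 CPM in MD1 female replicate 4, in which 7 of the 9 were below every WT library. The 8 erythroid markers (embryonic globins, Alas2 and others) summed to 3081 to 4468 CPM in WT, to 2702 to 4367 CPM in the other MD1 libraries and to 20611 CPM in MD1 female replicate 4, in which 8 of 8 were above every WT library. In bulk tissue, more cells of a type and more RNA per cell cannot be told apart, and likewise fewer cells and less RNA per cell. None of the 9 yolk sac endoderm and liver markers was at 0 throughout. Their sum was 5.96 to 34.4 CPM in WT, 370.1 CPM in the library labelled as MD1 female replicate 1 and 98.6 CPM in MD1 female replicate 4. The forebrain markers summed to 215 to 374 CPM in WT and to 472 CPM in that library, the nasal placode markers to 232 to 274 CPM in WT and to 219.8 CPM there, and the macrophage and muscle markers were at most at 36.1 and 1.70 CPM in any library.

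Cells take up glucose through transporters such as Slc2a1 and split it by glycolysis into pyruvate. When oxygen is low, the alpha subunits of HIF escape hydroxylation by oxygen sensors and degradation, pair with Arnt and bind a short DNA motif, the hypoxia response element, near glycolytic genes. Pyruvate is then turned to lactate by Ldha and exported by Slc16a3, while Pdk1 phosphorylates and shuts off pyruvate dehydrogenase and so limits the entry of pyruvate into the mitochondrial cycle. Glycolysis of this kind is also known in early embryos, whose fast-growing tissues use much glucose.

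The core of the HIF motif was looked for as ACGTG and as GCGTG, on both strands, in the 250 bases before the annotated starts of the members, using RefSeq promoters on GRCm38.p6. The 10 genes had 16 such entries, since some have several starts. ACGTG was found for 6 of 10 genes (Slc2a1, Hk2, Aldoa, Pgk1, Ldha and Slc16a3) and in 16.6% of all 32851 promoters in that set, or for 18.5% of its 27025 genes. GCGTG was found for 6 of 10 genes (Slc2a1, Pfkl, Pfkp, Eno1, Ldha and Pdk1) and for 30.9% of all genes. Either form was found for 10 of 10 genes and for 41.5% of all genes. The members were chosen as genes that HIF is known to induce, which bears on these counts. Genes with several starts also offer more windows, and the shares were not tested. ACGTG and its complement overlap in the palindrome CACGTG, which was then counted on both strands. A match describes the letters in these windows and does not show that a factor binds there.

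Sequences of 4 members are shown because their windows hold 2 or more ACGTG sites, or none in the case of Pdk1. None of these 4 windows overlaps an exon of GENCODE release M21. Each is written 5′ to 3′ along the strand of its gene and ends at the base before the RefSeq start. Capitals mark ACGTG or its complement CACGT.
Pgk1, chrX:106186850-106187099, + strand: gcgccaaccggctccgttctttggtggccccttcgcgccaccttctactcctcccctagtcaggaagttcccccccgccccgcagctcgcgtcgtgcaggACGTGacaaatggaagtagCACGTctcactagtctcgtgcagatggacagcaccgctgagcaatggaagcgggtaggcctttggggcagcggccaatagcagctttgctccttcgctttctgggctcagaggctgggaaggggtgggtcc
Ldha, chr7:46845554-46845803, + strand: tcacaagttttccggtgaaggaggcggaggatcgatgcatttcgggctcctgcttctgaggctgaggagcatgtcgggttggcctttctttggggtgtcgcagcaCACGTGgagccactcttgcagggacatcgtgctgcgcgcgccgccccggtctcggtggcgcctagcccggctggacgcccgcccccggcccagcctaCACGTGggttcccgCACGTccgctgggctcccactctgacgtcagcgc
Hk2, chr6:82774455-82774704, - strand: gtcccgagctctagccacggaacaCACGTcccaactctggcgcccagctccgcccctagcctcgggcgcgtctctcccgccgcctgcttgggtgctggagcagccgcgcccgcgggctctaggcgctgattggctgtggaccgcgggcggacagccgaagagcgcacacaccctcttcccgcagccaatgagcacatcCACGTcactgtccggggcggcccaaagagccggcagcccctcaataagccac
Pdk1, chr2:71872974-71873223, + strand: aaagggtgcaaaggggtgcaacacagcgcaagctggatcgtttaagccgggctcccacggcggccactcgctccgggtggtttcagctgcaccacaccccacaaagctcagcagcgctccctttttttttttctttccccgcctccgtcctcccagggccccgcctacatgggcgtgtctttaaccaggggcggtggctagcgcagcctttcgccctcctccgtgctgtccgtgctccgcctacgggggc
In Pgk1 the sites began 150 and 131 bases before the start, 1 on each strand. In Ldha a CACGTG palindrome began 145 bases before the start, another began 48 bases before it, and a single CACGT began 34 bases before it. The GENCODE model of Ldha (chromosome 7, 46841475 to 46855627) starts upstream of this RefSeq start, so the window lies inside that gene model, in an intron. In Hk2 the sites began 226 and 52 bases before the start, both as CACGT. Slc2a1 had a single site 36 bases before its start, and Slc16a3 had sites 27 and 14 bases before its start.

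All 10 genes were highest in the same library, MD1 female replicate 4, at 3.28 (Ldha) to 16.1 (Pfkp) times the WT mean. Relative to the WT mean on the log2 CPM scale, the members averaged 2.77 in that library, 0.66 in the library labelled as MD1 female replicate 1, -0.29 in MD1 male replicate 2 and 0.25 in MD1 male replicate 3. Within WT, the same average ran from -0.58 in WT female replicate 4 to 0.61 in WT male replicate 1. Summed over the members, the level was 1703 to 3489 CPM in WT, 2125 and 3147 CPM in the MD1 males, 3567 CPM in the library labelled as MD1 female replicate 1 and 14350 CPM in MD1 female replicate 4. That library also had the high erythroid marker level given above, and its part in the levels of the glycolysis genes was not tested.

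**Figure D1:**
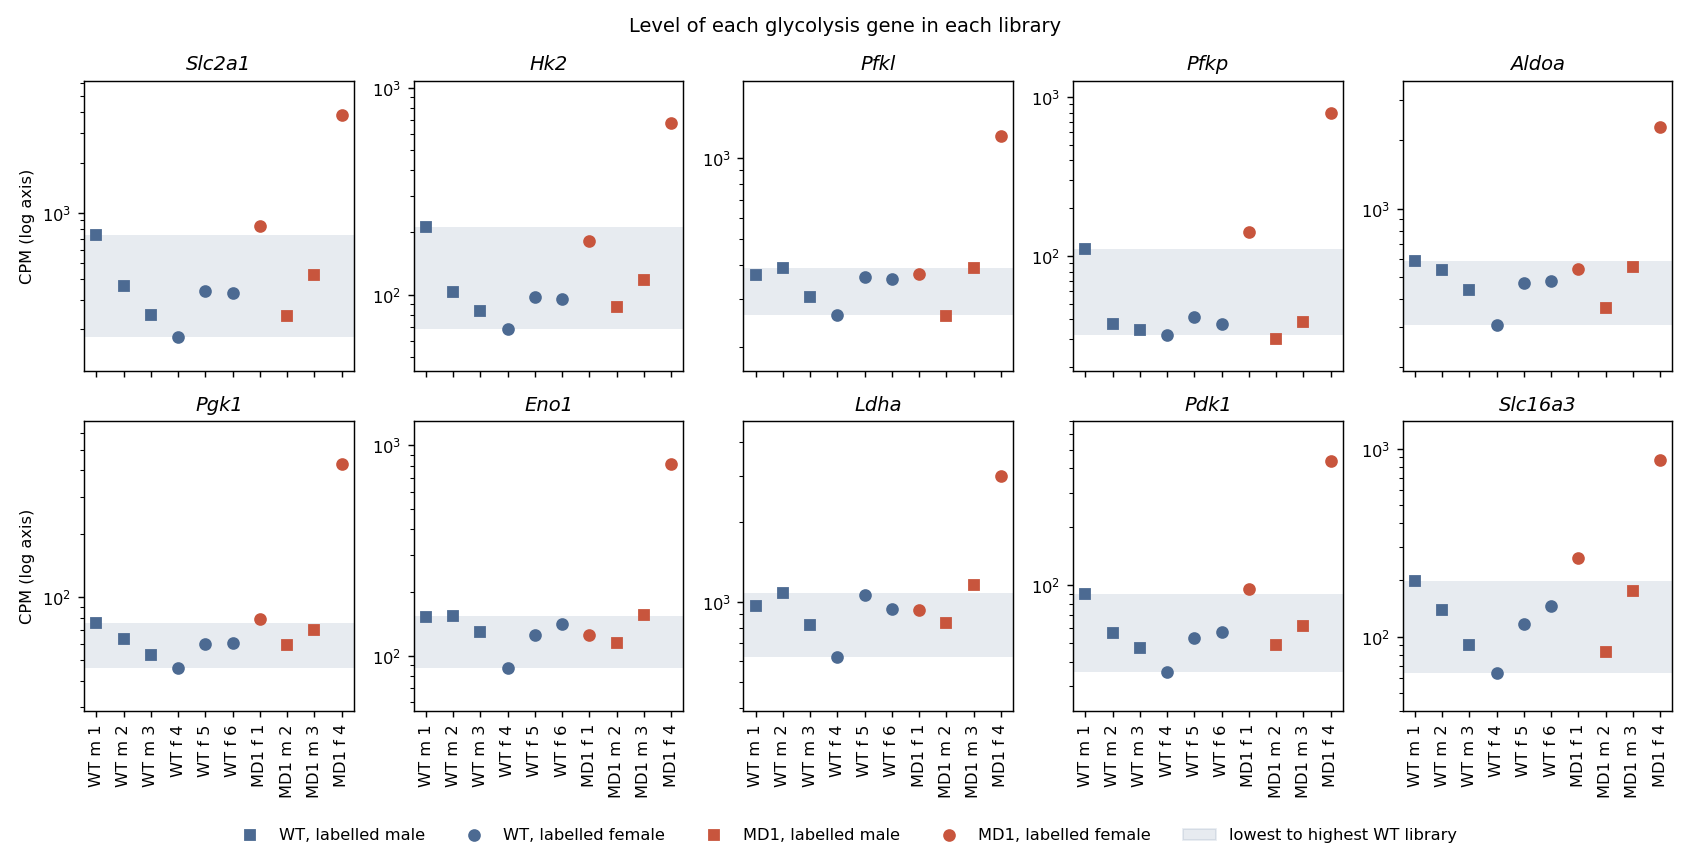
Level of each of the 10 genes in each library, in CPM (counts scaled to a common library size) on a log axis of its own for each gene. Blue points are WT and red points MD1, squares are labelled males and circles labelled females, and the shaded band runs from the lowest to the highest WT library. In all 10 panels MD1 female replicate 4 lies above the band and the other 3 MD1 libraries lie in it or closer to it.

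Glucose entry was followed in Slc2a1 (ENSMUSG00000028645, GRCm38 chromosome 4, 119108711 to 119137983, + strand), which encodes the glucose transporter GLUT1. The WT libraries ran from 179 to 736 CPM with a median of 334 CPM. In MD1, the library labelled female replicate 1 had 833 CPM, male replicate 2 had 239 CPM, male replicate 3 had 425 CPM and female replicate 4 had 3856 CPM. The groups overlapped, since both MD1 males lay inside the WT range while both libraries labelled MD1 female lay above it. The WT mean was 365 ± 194 CPM (SD, n = 6) and that of MD1 was 1338 ± 1697 CPM (SD, n = 4). The fitted log2 fold change was 1.88 ± 0.64 (SE), with an adjusted p of 0.496 by edgeR's quasi-likelihood test over the 15452 autosomal genes. Slc2a1 overlaps a microRNA gene on its own strand and a pair of antisense RNA genes. Reads of the antisense genes could not be separated because the library kit does not mark the strand.

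Trapping of glucose inside the cell is the task of hexokinase 2, from Hk2 (ENSMUSG00000000628, chromosome 6, 82725025 to 82774454, - strand). Hk2 ran from 68.3 to 212 CPM in WT, with a median of 96.5 CPM. It stood at 183 CPM in the library labelled as MD1 female replicate 1, at 86.8 and 117 CPM in MD1 male replicates 2 and 3, and at 675 CPM in MD1 female replicate 4. Only the last of these was above the WT range, and the highest WT library, male replicate 1, exceeded the other 3 MD1 libraries. MD1 against WT gave a log2 fold change of 1.28 ± 0.50 (SE, adjusted p = 0.496, edgeR). An antisense RNA gene, Gm17034, overlaps Hk2.

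Phosphofructokinase, which makes the committed step of glycolysis, has liver and platelet isozymes among the members, and they differed from each other. Pfkl (ENSMUSG00000020277, chromosome 10, 77986947 to 78010083, - strand) ran from 263 to 389.7 CPM in WT with a median of 359 CPM. Its MD1 levels were 372 CPM in the library labelled female replicate 1, 260.4 CPM in male replicate 2, 393 CPM in male replicate 3 and 1199 CPM in female replicate 4. Male replicate 2 was just below the WT range, male replicate 3 just above it and the library labelled female replicate 1 inside it. Pfkp (ENSMUSG00000021196, chromosome 13, 6579768 to 6648777, - strand) was at 32.2 to 41.4 CPM in 5 WT libraries and at 111 CPM in WT male replicate 1. Its MD1 levels were 141 CPM in the library labelled female replicate 1, 30.3 and 38.4 CPM in male replicates 2 and 3, and 789 CPM in female replicate 4. Pfkp thus split all 10 libraries into 7 at or below 41.4 CPM and 3 at 111 to 789 CPM, and the 3 came from both genotypes. The fitted log2 fold changes were 0.71 ± 0.34 for Pfkl (adjusted p = 0.508) and 2.38 ± 0.75 for Pfkp (adjusted p = 0.496), both by edgeR. The 3′ end of the Pfkp model overlaps the gene Pitrm1 on the opposite strand.

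Aldolase A, which cleaves the 6-carbon sugar, comes from Aldoa (ENSMUSG00000030695, chromosome 7, 126795234 to 126800751, - strand). Aldoa ran from 308 to 587 CPM in WT, with a median of 475 CPM. In MD1 it was at 540.5 CPM in the library labelled female replicate 1, at 367 and 552 CPM in male replicates 2 and 3, and at 2282 CPM in female replicate 4. The first 3 of these lay inside the WT range. Its fitted log2 fold change was 0.99 ± 0.42 (SE, adjusted p = 0.498, edgeR). Fam57b overlaps Aldoa on the opposite strand. A further row under the same identifier, at 126800790 to 126809108, held 20 to 129 counts per library and was not added to it. The aldolase retrocopies Aldoart1 and Aldoart2 held 44 to 602 and 43 to 447 counts per library, and the handling of reads that match several places is not stated.

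Phosphoglycerate kinase 1, the first ATP-yielding step, is encoded on the X chromosome by Pgk1 (ENSMUSG00000062070, 106187100 to 106203699, + strand). It ran from 45.8 to 75.2 CPM in WT with a median of 60.0 CPM, and the WT males and females overlapped. The library labelled as MD1 female replicate 1 had 78.4 CPM, male replicates 2 and 3 had 59.5 and 69.8 CPM, and female replicate 4 had 427 CPM. In the test on all chromosomes, which replaces the autosomal one for this gene, the fitted log2 fold change was 1.42 ± 0.47 (SE, adjusted p = 0.492, edgeR). Across the 523 other X-linked genes tested, leaving out Xist, the median log2 level relative to the WT mean was 0.18 in MD1 female replicate 4, against 2.86 for Pgk1. In the MD1 males the corresponding pairs were 0.09 and 0.02 in replicate 2 and 0.03 and 0.25 in replicate 3. The testis retrogene Pgk2 had 0 counts in every library.

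Eno1 (ENSMUSG00000063524, chromosome 4, 150236721 to 150248879, + strand) makes enolase 1, which yields phosphoenolpyruvate. It ran from 87.0 to 154 CPM in WT, with a median of 135 CPM. The MD1 libraries had 125 CPM in the library labelled female replicate 1, 115 and 156 CPM in male replicates 2 and 3, and 810.1 CPM in female replicate 4. Male replicate 3 was just above the WT range, and male replicate 2 and the library labelled female replicate 1 were inside it. The fitted log2 fold change was 1.20 ± 0.48 (SE, adjusted p = 0.496, edgeR). This level is uncertain because the near-identical copy Eno1b took more counts than Eno1 in 9 of the 10 libraries: Eno1 held 37.3% to 43.5% of their joint counts in WT, 40.2% to 43.9% in 3 MD1 libraries and 66.4% in MD1 female replicate 4. Taken jointly, both genes were at 322 ± 51 CPM in WT (SD, n = 6), at 285 to 356 CPM in those 3 MD1 libraries and at 1219 CPM in MD1 female replicate 4.

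Lactate dehydrogenase A, which turns pyruvate into lactate, is encoded by Ldha. The gene (ENSMUSG00000063229, chromosome 7, 46841475 to 46855627, + strand) ran from 619 to 1079 CPM in WT with a median of 951 CPM. It was at 938 CPM in the library labelled as MD1 female replicate 1, at 836 and 1159 CPM in male replicates 2 and 3, and at 3002 CPM in female replicate 4. Male replicate 3, the shallowest library, was slightly above the WT range and the library labelled female replicate 1 was close to the WT median. The fitted log2 fold change was 0.70 ± 0.31 (SE, adjusted p = 0.502, edgeR), the smallest fitted value among the members.

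Pdk1 (ENSMUSG00000006494, chromosome 2, 71873224 to 71903858, + strand) encodes the kinase that shuts off pyruvate dehydrogenase. Its WT range was 35.4 to 89.5 CPM with a median of 54.6 CPM. In MD1 it was at 95.5 CPM in the library labelled female replicate 1, at 49.1 and 61.1 CPM in male replicates 2 and 3, and at 438 CPM in female replicate 4. Both libraries labelled MD1 female were above the WT range and both MD1 males inside it. With all libraries the fitted log2 fold change was 1.53 ± 0.52 (SE, adjusted p = 0.496, edgeR). Pdk1 had the profile nearest to the average of the members, with a root mean square distance of 0.11 log2 units over the 10 libraries, and Pfkp the farthest, at 0.63.

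Lactate export is the role of the transporter MCT4, from Slc16a3 (ENSMUSG00000025161, chromosome 11, 120948480 to 120960868, + strand). Slc16a3 ran from 64.0 to 196 CPM in WT, with a median of 127 CPM. The MD1 libraries had 260.3 CPM in the library labelled female replicate 1, 82.4 and 174 CPM in male replicates 2 and 3, and 871 CPM in female replicate 4. Again the libraries labelled MD1 female were above the WT range and the males inside it. For Slc16a3 the fitted log2 fold change was 1.48 ± 0.51 (SE, adjusted p = 0.496, edgeR).

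WT and MD1 did not separate for any member, which would have required all 4 MD1 libraries to lie on the far side of all 6 WT libraries. All 4 MD1 libraries lay above all 6 WT libraries for 0 of the 10 members and for 0.976% of the 15982 genes. In the comparison of MD1 with WT, 0 of the 9 autosomal members passed an adjusted p of 0.05 by edgeR, and 0.0777% of the 15452 autosomal genes did. At an unadjusted p under 0.05, 8 of the 9 were higher in MD1, beside 6.41% of all autosomal genes. Pfkl was the exception. Since the members were chosen with earlier results of these data known, such counts are descriptive only. DESeq2 gave no p for Eno1 and called 0 of the other 8, with 6 under an unadjusted p of 0.05, beside 10.8% of all genes. limma-voom called 0 of the 9 with 1 under it, beside 11.0% of all genes, and limma on log2 RPKM called 0 with 0 under it, beside 8.30%. The median fitted log2 fold change of the 9 was 1.28, with a range of 0.70 to 2.38, and that of all autosomal genes was 0.00. This median rested on MD1 female replicate 4: without that library it was 0.26 with 0 of 9 under an unadjusted p of 0.05, and with both libraries labelled MD1 female left out it was -0.04.

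**Figure D2:**
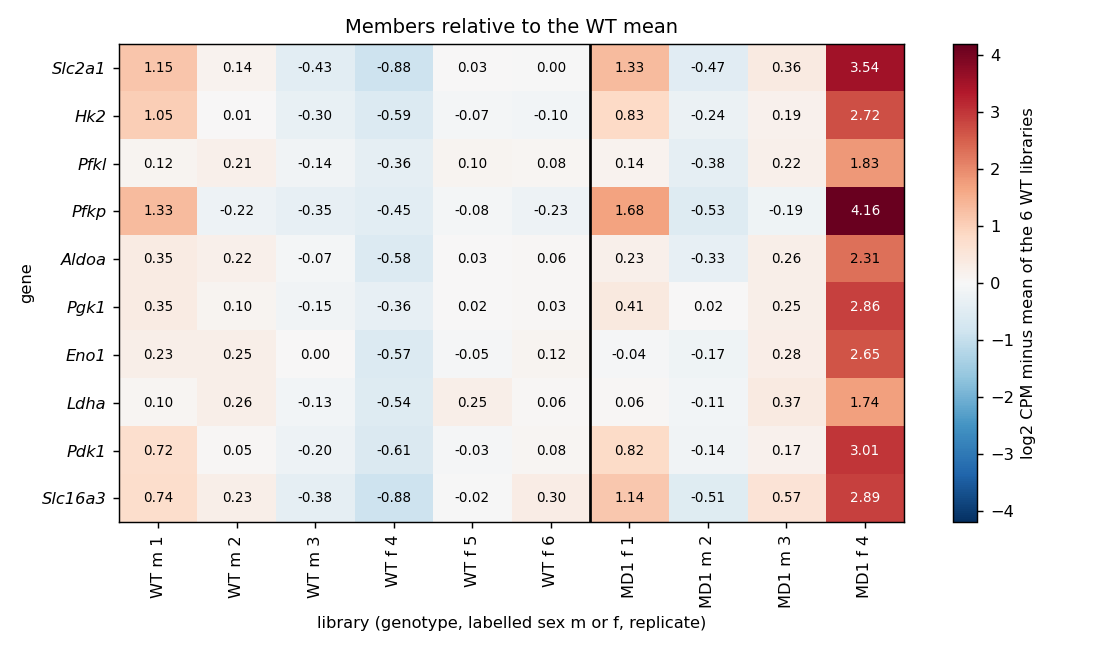
Level of each member (rows) in each library (columns, with m or f for the labelled sex) as log2 CPM minus the mean of the 6 WT libraries, with the value in each cell and red for higher. The last column, MD1 female replicate 4, holds values from 1.74 for Ldha to 4.16 for Pfkp, and the column of WT female replicate 4 is below 0 for all 10 genes.

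The libraries other than MD1 female replicate 4 did not order all members alike. Slc2a1, Hk2, Pfkp, Pdk1 and Slc16a3 were high in the library labelled as MD1 female replicate 1 and in WT male replicate 1, at 0.82 to 1.68 and 0.72 to 1.33 log2 units above the WT mean. Pfkl, Aldoa, Pgk1, Eno1 and Ldha were at -0.04 to 0.41 and 0.10 to 0.35 in the same libraries. This division into 5 and 5 was made after the values were seen and was not tested. WT male replicate 1 was the highest WT library for 7 members and WT female replicate 4 the lowest for all 10. Members above the highest WT library numbered 5 of 10 in the library labelled as MD1 female replicate 1, 0 in MD1 male replicate 2, 3 in MD1 male replicate 3 and 10 in MD1 female replicate 4. The shares of all 15982 genes above the highest WT library were, in the same order, 13.7%, 20.1%, 23.4% and 35.8%.

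Within the labelled sexes, fitted values were below 0 for 8 of 10 members in males and above 0 for 10 of 10 in females. Between MD1 and WT males, 0 of 10 members passed the adjusted test by edgeR, beside 0.0188% of the 15982 genes, and 0 of 10 were under an unadjusted p of 0.05, beside 3.8% of them. limma-voom gave 0 and 0, the latter beside 3.15% of all genes. The fitted log2 fold changes in males ran from -0.82 (Pfkp) to 0.06 (Ldha), with a median of -0.17. Between the labelled females, 0 of 10 passed the adjusted test, beside 0.00626% of all genes, with adjusted p from 0.0996 to 0.185 by edgeR. All 10 were higher at an unadjusted p under 0.05, beside 11.8% of all genes, and limma-voom gave 0 and 10, the latter beside 17.4% of all genes in either direction. Fitted log2 fold changes in females ran from 1.17 (Ldha) to 3.65 (Pfkp) with a median of 2.25, while that of all genes was -0.01. Both libraries labelled MD1 female lay above all 3 WT females for 8 of 10 members, all but Eno1 and Ldha, and for 15.7% of all genes. The library labelled as MD1 female replicate 1 has Y-linked reads that go against its label. Set against WT libraries of both sexes, it was above the highest for 5 of 10 members.

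A test of the difference between the labelled sexes called 0 of 10 members by edgeR, with 9 of 10 larger in females at an unadjusted p under 0.05, beside 7.13% of all genes. Ldha was the exception (log2 difference 1.11 ± 0.55, SE, adjusted p = 0.485, edgeR). limma-voom also called 0, with 6 under an unadjusted p of 0.05, beside 6.81% of all genes. These contrasts place in the MD1 female group a library whose Y-linked reads go against its label. Without it, MD1 female replicate 4 alone stood for MD1 females and was assumed to vary like the other groups: 10 of 10 members then passed in females, beside 33.8% of the 16127 genes tested, and 10 of 10 passed for the difference between sexes, beside 22.6%. Without MD1 female replicate 4, 0 of 10 passed in females and their median log2 fold change was 0.75. Leaving out WT male replicate 1 let 1 of 10 members, Pfkp, pass in females, with an adjusted p of 0.0488 in the edgeR fit. In that fit 29 of all 15965 genes passed, or 0.182%.

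**Figure D3:**
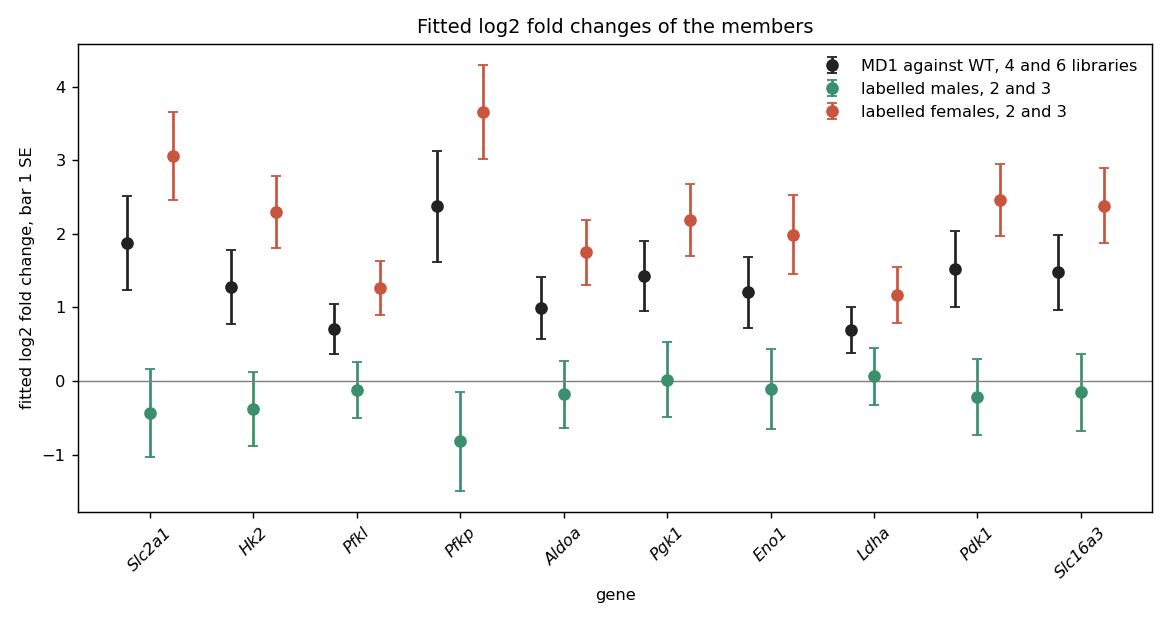
Fitted log2 fold changes of the 10 members with bars of 1 SE (y axis) for MD1 against WT on all chromosomes (black, 4 and 6 libraries), for labelled males (green, 2 and 3) and for labelled females (red, 2 and 3). Values for females run from 1.17 to 3.65 and those for males from -0.82 to 0.06, and no point passed the adjusted test.

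Levels of different members can be compared only per length of transcript, for which the deposited log2 RPKM values were used. In WT the order was Ldha (7.94 ± 0.30, SD, n = 6), Aldoa (7.16 ± 0.32), Slc2a1 (6.41 ± 0.67), Pfkl (5.51 ± 0.21), Pgk1 (4.56 ± 0.23), Eno1 (4.44 ± 0.31), Slc16a3 (4.32 ± 0.56), Hk2 (3.95 ± 0.55), Pdk1 (2.65 ± 0.43) and Pfkp (1.56 ± 0.65). Pgk1, Eno1, Slc16a3 and Hk2 followed each other at gaps smaller than the larger SD of each pair, so neighbours among them do not differ beyond the spread between libraries by that measure. Within libraries, however, Slc16a3 was above Hk2 in 6 of 6, while Pgk1 was above Eno1 and Eno1 above Slc16a3 in 4 of 6 each. The other neighbours were farther apart than that SD and kept their order in 6 of 6 WT libraries, except that Aldoa was above Slc2a1 in 5 of 6. On the same scale, MD1 female replicate 4 had Slc2a1 first at 9.68, then Ldha at 9.40 and Aldoa at 9.19. The place of Eno1 in the WT order is uncertain, because it depends on how reads were shared out with Eno1b. Eno1 held 37.3% to 43.5% of their joint counts in WT.

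Isozymes of the members did not all follow them, and the balance within a pair can be read per length as the difference of log2 RPKM values in 1 library; no test was made of these. Pfkp was below Pfkl by 4.38 to 2.74 log2 units in WT, that is at -3.95 ± 0.61 (SD, n = 6), and at -2.40 and -1.61 in the library labelled as MD1 female replicate 1 and MD1 female replicate 4. Ldha exceeded the heart-type subunit Ldhb, which favours the conversion of lactate to pyruvate, by 0.98 to 1.81 in WT, by 1.73 and 3.20 in those 2 libraries and by 1.35 and 1.83 in MD1 male replicates 2 and 3. Ldhb was at 145 to 172 CPM in WT and at 155 CPM in MD1 female replicate 4. Pdk1 was below its relative Pdk3 in all 6 WT libraries (-1.75 to -0.84) and above it in MD1 female replicate 4 (0.91). Slc16a3 was below Slc16a1, the transporter MCT1, in all 6 WT libraries (-1.08 to -0.02) and above it in the library labelled as MD1 female replicate 1 (0.38) and also in MD1 female replicate 4 (1.59). In 2 pairs the balance moved the other way in MD1 female replicate 4, to below every WT library: Slc2a1 exceeded Slc2a3 by 1.07 there and by 1.25 to 1.97 in WT, and Aldoa exceeded Aldoc by 6.65 there and by 7.22 to 8.05 in WT. Both were also just below the WT range in the library labelled as MD1 female replicate 1 (1.22 and 7.19). Muscle phosphofructokinase, Pfkm, was at 78.5 to 83.8 CPM in WT and at 103 CPM in MD1 female replicate 4, and Hk1, the hexokinase of most tissues, at 56.9 to 71.7 and 155 CPM.

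Other genes of glucose and oxygen metabolism were taken from lists fixed by name, also with earlier results of these data known. Their counts beside those of all genes are likewise descriptive only. In the test of MD1 against WT on all chromosomes, 0 of the 105 listed genes tested passed an adjusted p of 0.05 by edgeR, beside 0.0688% of the 15982 genes, and 34 were under an unadjusted p of 0.05. DESeq2 called 0 of 99, with 31 under it, and gave no p for the other 6, which were Adm, Ndrg1, Higd1a, Kdm3a, Gpi1 and Aldoart1. limma-voom called 0 of 105 with 18 under it and limma on log2 RPKM 0 with 5. Of all genes, 1745 of 15903 were under that threshold in either direction by DESeq2. The counts were 1756 of 15982 by limma-voom and 1316 of 15982 by limma on log2 RPKM. At an unadjusted p under 0.05 in the edgeR fit, 6.61% of all genes were higher in MD1 and 3.23% lower.

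Of the other glycolytic enzymes, isozymes and transporters, 15 of 17 were tested, 7 were higher at that unadjusted threshold and 0 lower, and the median log2 fold change was 0.46. The 3 with the largest fitted changes were neuronal enolase Eno2 (2.58 ± 1.04, SE), the transporter Slc2a3, known as GLUT3 (2.34 ± 0.78), and brain-type aldolase Aldoc (1.66 ± 0.64). Slc2a3 was at 106 to 639 CPM in WT, at 739 CPM in the library labelled as MD1 female replicate 1, at 157 and 237 CPM in MD1 male replicates 2 and 3 and at 3805 CPM in MD1 female replicate 4. Eno2 was at 4.21 to 66.7 CPM in WT and at 57.3, 8.78, 4.35 and 313 CPM in MD1 replicates 1 to 4. In both genes WT male replicate 1 was the highest WT library. Pkm, the pyruvate kinase, was at 1337 to 1865 CPM in WT and at 4173 CPM in MD1 female replicate 4.

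Pfkfb3, which makes fructose 2,6-bisphosphate, the activator of phosphofructokinase, was at 43.3 to 114 CPM in WT and at 108, 43.3, 55.8 and 629 CPM in MD1 replicates 1 to 4, with a fitted log2 fold change of 1.83 ± 0.63 (SE). It was the only 1 of the 5 genes of its list under an unadjusted p of 0.05, and the list's median was 0.16. The next largest fitted changes there were 0.41 for Pfkfb1 and -0.38 for Tigar, which degrades that activator. Of 12 genes for entry of pyruvate into mitochondria, 1 was higher at that threshold and the median was 0.08. The largest were -0.35 for the phosphatase Pdp1, 0.34 for Pdk3 and 0.34 for the pyruvate carrier Mpc1. The average of this list was -0.12 to 0.13 in WT, -0.42 in MD1 male replicate 3 and 0.21 in MD1 female replicate 4.

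HIF subunits and oxygen sensors gave 5 of 10 genes higher at the unadjusted threshold, with a median of 0.17. Egln3 and Egln1, oxygen sensors that HIF itself induces, had fitted log2 fold changes of 1.93 ± 0.70 and 0.90 ± 0.37 (SE), and Hif3a of 0.50 ± 0.23. Hif1a RNA was at 231 to 254 CPM in WT, at 231 to 282 CPM in 3 MD1 libraries and at 172 CPM in MD1 female replicate 4, which was the lowest of the 10. HIF is controlled mainly at the level of its protein, which was not measured. The non-glycolytic hypoxia genes gave 14 of 16 higher at that threshold, with a median of 1.65. By the other tools 10 of the 12 with a p (DESeq2), 4 of 16 (limma-voom) and 1 of 16 (limma on log2 RPKM) were under it in either direction. Of all genes, these tools had 1745 of 15903, 1756 of 15982 and 1316 of 15982 under it, in the same order. These hypoxia genes were led by the vasodilator peptide gene Adm (3.98 ± 1.29), Ndrg1 (3.35 ± 1.17) and the transcriptional repressor Bhlhe40 (3.30 ± 1.12). As with Pfkp, their average was high in WT male replicate 1 (1.25 log2 units above the WT mean), in the library labelled as MD1 female replicate 1 (1.25) and also in MD1 female replicate 4 (3.42), and at -0.63 to -0.17 in the other 7 libraries. Adm itself was low in most libraries. It was at 0.76 to 17.2 CPM in WT and at 15.6, 1.10, 0 and 213 CPM in MD1 replicates 1 to 4.

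For the 16 TCA cycle genes the median was -0.07, with 0 higher and 2 lower at the unadjusted threshold: Sdhb (-0.26 ± 0.11) and Sdhc (-0.21 ± 0.08), both subunits of succinate dehydrogenase. Idh3g had the largest fitted value of that list (0.32). Of 14 nuclear-encoded respiratory chain genes, 1 was higher, the oxygen-responsive isoform Cox4i2 (1.48 ± 0.64), and the median was -0.03. Cyc1 and Cox7a2 were next, at -0.15 and -0.14. Cox4i2 was low, at 0.75 to 1.83 CPM in WT. It was at 2.38, 0.60, 0.72 and 11.9 CPM in MD1 replicates 1 to 4. In the pentose phosphate pathway 0 of 7 were under that threshold and the median was -0.12, led by Taldo1 (-0.22), Pgls (-0.15) and Rpia (0.14). The average of these 3 lists was between -0.18 and 0.07 in every library. In MD1 female replicate 4 the TCA cycle average was -0.18, and in the library labelled as MD1 female replicate 1 it was -0.08. Both were below the WT range of -0.06 to 0.06. The pentose phosphate average was -0.16 in the library labelled as MD1 female replicate 1 and -0.12 in MD1 male replicate 2. Its WT range was -0.08 to 0.07, and MD1 female replicate 4 was inside that range (-0.04). Glycogen metabolism gave 1 of 7 tested genes higher, the branching enzyme Gbe1 (1.24 ± 0.44), with a median of 0.31, followed by Pygl (0.79) and Gys1 (0.63). Among the retrocopies and relatives of the members, 5 of 8 were in the table and 3 could be tested, Aldoart2 (1.15), Aldoart1 (0.92) and Eno1b (0.32), whose reads are uncertain as given above.

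**Figure D4:**
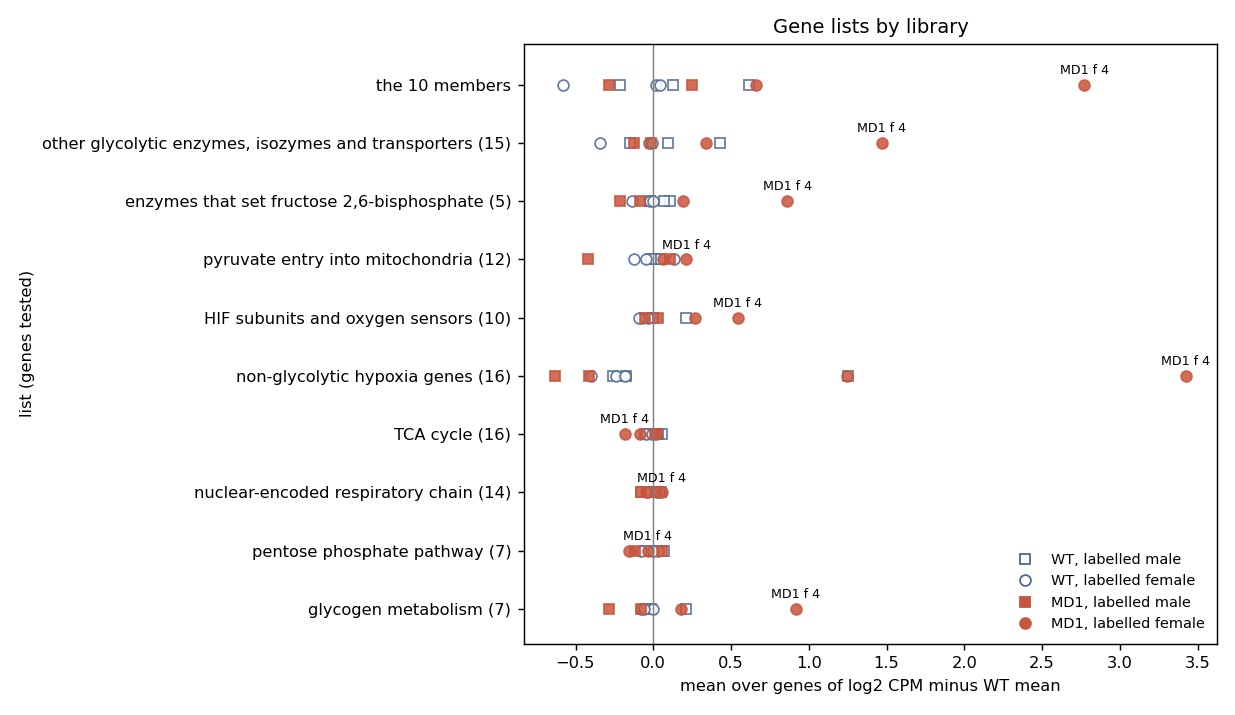
Mean over the genes of each list (rows, with the number tested) of log2 CPM minus the WT mean, 1 point per library, blue and open for WT, red and filled for MD1, squares for labelled males and circles for labelled females. MD1 female replicate 4 is marked and lies at 2.77 for the 10 members and at 3.42 for the non-glycolytic hypoxia genes, while all libraries lie within -0.18 to 0.07 for the TCA cycle, respiratory chain and pentose phosphate lists.

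The genes outside the members whose profile over the 10 libraries was nearest to the members' average, among those with a WT mean of at least 1 CPM, were Pgm1, Kbtbd11, Gpi1, Rgs9bp, Adgrl4, Clcn3, Gm26762, Gm37844, Sfmbt2 and Kdm3a. Their root mean square distances ran from 0.18 log2 units for Pgm1, a phosphoglucomutase that joins glycogen to glycolysis, to 0.25 for Kdm3a, a histone demethylase. Gpi1, the glycolytic glucose-6-phosphate isomerase, was at 0.19. This set rested on MD1 female replicate 4: when the distance was computed without that library, 1 of these 10 genes was still among the nearest 10, and when any other library was left out 6 to 8 were.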

How the data were processed

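RNA of FNP tissue was measured in 6 WT and 4 MD1 libraries, grouped by the labelled genotype. Per the study's methods and the submitters' processing notes, Trim Galore 0.4.4 removed adapters, HISAT2 2.0.5 mapped the reads to GRCm38.p6 and SeqMonk quantified them. The deposited tables hold raw counts for each gene and log2 RPKM values, which the authors scaled for library size and transcript length. Their averaged columns were not used. The strand setting and the handling of reads with several matches are not given in the sources used here. The table had 35591 rows; 27 symbols turned into dates were restored and 49 repeats of an identifier dropped.

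The deposited counts went into the edgeR 4.0.16 quasi-likelihood test (R 4.3.3) after filterByExpr and TMM, with Benjamini-Hochberg adjustment over all genes tested and a threshold of 0.05: MD1 against WT on 15452 autosomal genes, as the study left out sex chromosomes, on all chromosomes for Pgk1 and the lists, and within labelled sexes from a model of 4 means on all chromosomes. The SE given for an edgeR fit was derived from its test, as the absolute log2 fold change divided by the square root of F. Log2 levels use a prior count of 2. On simulated counts for MD1 against WT, over the 15982 genes, 65 of 98 genes changed by 1 log2 unit and 96 of 99 changed by 2 were called, with 3 false calls. Whether these rates of calling hold for the libraries measured here, in which MD1 female replicate 4 stood apart, was not tested. DESeq2 1.42.0, limma 3.58.1 (voom, and log2 RPKM), total count and RLE scaling, no filter, a covariate for labelled sex, a replicate block and leaving out libraries were the alternatives. No 2 of the 45 pairs of libraries agreed within sampling noise (chi-square per degree of freedom at least 4.14). The members and lists were chosen with earlier results of these data known. Genes named are all members, the 3 largest fitted changes and any called gene of each list, isozymes beside a member, and the 10 nearest profiles. Other genes of those lists, and the marker and sex-linked genes, were named after their values were seen. Depth was 4195119 to 24125084 counts per library. An erythroid marker of the original list is not reported here and is not in its sum.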

Additional observations from a re-analysis of the deposited data

Results flagged for a closer look

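In 12 of the 20 groups of libraries examined (10 members, WT and MD1), 1 library was farther from its neighbour than Dixon's 95% critical value allows for the group's range; chance would do this in about 1 group in 20, but the members share their libraries, so these are not 12 separate events. In MD1 it was always female replicate 4, the highest of 4, for 9 members: 3856 CPM of Slc2a1, 675 CPM of Hk2, 1199 CPM of Pfkl, 789 CPM of Pfkp, 2282 CPM of Aldoa, 427 CPM of Pgk1, 810.1 CPM of Eno1, 3002 CPM of Ldha and 438 CPM of Pdk1. Slc16a3 fell short of the critical value in MD1. Of all 15982 genes, 5.2% had MD1 female replicate 4 set apart in this way as the highest of MD1. In WT it was always male replicate 1, the highest of 6, for 3 members: 736 CPM of Slc2a1, 212 CPM of Hk2 and 111 CPM of Pfkp, beside 2.26% of all genes with that library set apart as the highest of WT. The library labelled as MD1 female replicate 1, which was high for the same 3 genes, was not set apart in MD1 because female replicate 4 set the range.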

How the results depend on the processing

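By every tool and alternative run, 0 of the 9 autosomal members passed in MD1 against WT, except that DESeq2 gave no p for Eno1 (nor for Pgk1). All 10 members had fitted values above 0 except without both libraries labelled MD1 female, where Slc2a1 was at -0.14, Hk2 at -0.11, Pfkl at -0.066, Pfkp at -0.50, Aldoa at -0.035 and Pdk1 at -0.035. The median of the autosomal members was then -0.035; over the fits that each left out 1 library it ran from 0.26 to 1.57, and it was lowest without MD1 female replicate 4. The number of genes called was 51 with DESeq2, 4 with limma on log2 RPKM and 6 without both libraries labelled MD1 female; leaving out 1 library gave 4 to 13. Pgk1 ran from 0.23 to 1.70 over the fits without 1 library. In labelled females 0 to 10 members passed over such fits, and likewise 0 to 10 for the difference between sexes, both with 10 without the library labelled as MD1 female replicate 1. The cause was not tested.

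Same-numbered WT and MD1 libraries correlated at -0.12 to 0.05 in their deviations from the group means, and no MD1 library correlated best with its own number. The MD1 mean includes MD1 female replicate 4, which stood apart, so this comparison showed no pairing by number but could not settle it. With the replicate block, 0 members and 0 genes passed and the median of the members was 0.73.

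Of 68 listed genes with a fitted value above 0, 38 fell below it without both libraries labelled MD1 female. Those named above were Eno2 (-1.19), Slc2a3 (-0.32), Aldoc (-0.43), Pfkfb3 (-0.27), Egln3 (-0.26), Egln1 (-0.13), Hif3a (-0.13), Adm (-2.37), Ndrg1 (-1.44), Bhlhe40 (-1.51), Idh3g (-0.027), Cox4i2 (-1.19), Pygl (-0.95), Gys1 (-0.23) and Eno1b (-0.047). Over the fits without 1 library, Idh3g ran from -0.0089 to 0.43, Cox4i2 from -0.051 to 1.83, Pygl from -0.23 to 1.10 and Eno1b from -0.079 to 0.45, each below 0 without MD1 female replicate 4. The nearest-gene comparison without each library was chosen after seeing the data.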
